A study of Mus musculus with 32 samples.

Results

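The transcripts described here come from the mitochondrial genome of the mouse: mt-Nd1, mt-Nd2, mt-Nd4 and mt-Nd5, mt-Cytb, mt-Co1, mt-Co2 and mt-Co3, and mt-Atp6 and mt-Atp8. They were matched by Ensembl identifier to the deposited expression tables, and all 10 were found among the 48576 identifiers listed there. The starting point was a pair of genes, mt-Nd1 and mt-Atp8, that were higher in the midbrain (Mb) of triple-knockout embryos than in wild-type (WT) Mb, and the question was whether the other mitochondrial transcripts moved with them. The genes were therefore chosen by the FPKM values of the TKO and WT Mb libraries, their values in that comparison are given as a description with no p for a gene, only a count of calls beside that of all genes, and the forebrain (Fb) libraries of the same groups carry the tests.

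RNA was taken from dissected Fb and Mb of mouse embryos of B6C3F1-derived stock at embryonic day 9.5, when the cranial neural tube closes. It was sequenced as bulk tissue, 16 libraries from each region. Each region had 6 WT libraries, 4 triple-knockout libraries (TKO, labelled Cdh6.8.11 with exencephaly, an open brain), 3 double-knockout libraries with exencephaly (DKO_Ex, labelled Cdh8.11) and 3 double-knockout libraries with a cranial defect, an elongated Mb (DKO_CD, labelled Cdh6.8). Cdh6, Cdh8 and Cdh11 encode type II cadherins, which hold cells of the neural epithelium together. All knockout alleles were germline deletions made by genome editing within the exon that holds the start codon, and all descend from 1 founder. WT embryos came from matings of WT mice and mutants from matings of mice heterozygous at all 3 genes, so genotype and line of descent cannot be told apart. The study's methods give both DKO groups as Cdh8/11 mutants, while the labels of DKO_CD name Cdh6.8, and in 12 of the 32 tables, all of DKO embryos, the column heading and the sample record name opposite DKO groups. The heading was followed, and DKO_Ex and DKO_CD are therefore uncertain as separate groups, which bears on neither WT nor TKO. All values are FPKM, fragments per kilobase of transcript scaled to the mapped fragments of the library, a level per length.

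Mitochondria carry their own small circular genome, whose genes have no introns and are copied from both strands as long precursors that are then cut into messenger, ribosomal and transfer RNAs. The proteins it encodes are all core membrane subunits of the oxidative phosphorylation machinery: complex I, which takes electrons from NADH; complex III, which passes them to cytochrome c; complex IV, which hands them to oxygen; and complex V, the ATP synthase. The remaining subunits of these complexes, and the polymerase and ribosomal proteins of mitochondria, are encoded in the nucleus, so that a working respiratory chain needs both genomes.

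On the GRCm38 assembly the 10 genes all lie on the plus strand of chromosome M, each a protein-coding gene of 1 exon. The complex I genes are mt-Nd1 (ENSMUSG00000064341, chrM:2751-3707), mt-Nd2 (chrM:3914-4951), mt-Nd4 (chrM:10167-11544) and mt-Nd5 (chrM:11742-13565). The complex III gene is mt-Cytb (chrM:14145-15288). The complex IV genes are mt-Co1 (chrM:5328-6872), mt-Co2 (chrM:7013-7696) and mt-Co3 (chrM:8607-9390), and the complex V genes are mt-Atp8 (ENSMUSG00000064356, chrM:7766-7969) and mt-Atp6 (chrM:7927-8607). mt-Atp8 is the shortest at 204 bases, and its last 43 bases are also the first 43 bases of mt-Atp6, read in another frame. The transcript sequence of mt-Atp8 is shown because fragments from the shared bases, in capitals, fit both genes and its level is the one that differed most.
mt-Atp8: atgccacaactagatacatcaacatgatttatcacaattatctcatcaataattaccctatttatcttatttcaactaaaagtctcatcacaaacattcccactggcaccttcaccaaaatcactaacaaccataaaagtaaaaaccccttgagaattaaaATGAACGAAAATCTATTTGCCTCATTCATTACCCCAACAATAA

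A second ambiguity is in the nucleus. A piece of mitochondrial DNA inserted in chromosome 1 (chr1:24611535-24616197, minus strand) holds near-identical copies of 7 mitochondrial genes that are annotated under their own names, and 5 of the 10 genes have such a copy. Gm28661 matched mt-Co2 over 681 bases, Gm10925 matched mt-Atp6 over 678 bases and Gm28437 matched mt-Co3 over 783 bases with no mismatch. Gm28439 matched the first 876 bases of mt-Nd4, and Gm29216 matched the last 479 bases of mt-Co1. The edge of the last match is shown for both genes, with the first bases of the identical stretch in capitals; mt-Co1 is at chrM:6381-6411 on the plus strand and Gm29216 at chr1:24616167-24616197 on the minus strand.
mt-Co1: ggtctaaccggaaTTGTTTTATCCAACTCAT
Gm29216: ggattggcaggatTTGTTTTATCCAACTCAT

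Reads from an identical stretch cannot be assigned to the mitochondrial or the chromosome 1 gene, and the values of both rose and fell together. The FPKM of Gm28661 was 0.974 to 1.07 times that of mt-Co2 over the 32 libraries, that of Gm10925 0.955 to 1.05 times that of mt-Atp6, and that of Gm28437 0.963 to 1.05 times that of mt-Co3. For the partial copies the ratio was lower, 0.485 to 0.577 for Gm28439 over mt-Nd4 and 0.350 to 0.486 for Gm29216 over mt-Co1. The levels of mt-Co1, mt-Co2, mt-Co3, mt-Nd4 and mt-Atp6 are therefore uncertain, while the closest annotated match to mt-Nd1 (83.6% over 311 bases), mt-Nd2 (96.7% over 510 bases), mt-Nd5 (95.2% over 954 bases), mt-Cytb (92.9% over 1142 bases) and mt-Atp8 (81.4% over 167 bases) was less similar.

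The targeted genes and the tissue markers were read first. In the Mb, Cdh6 was 0.388, 0.353, 3.10 and 0.345 FPKM in the 4 TKO libraries against 1.04 to 3.55 FPKM in WT, and in the Fb it was 1.84, 0.766, 3.74 and 0.572 FPKM against 2.04 to 3.997 FPKM. The library labelled TKO replicate 3 thus lay inside the WT range of Cdh6 in both regions. In TKO Fb, Cdh8 was 0.911 to 3.15 FPKM against 0.840 to 1.96 FPKM in WT Fb and Cdh11 was 19.8 to 21.4 FPKM against 19.5 to 25.3 FPKM, both with overlap. Cdh11 was 14.5 to 16.6 FPKM in TKO Mb and 17.9 to 28.7 FPKM in WT Mb, without overlap, while Cdh8 was 0.851 to 2.32 FPKM in TKO Mb and 1.14 to 10.1 FPKM in WT Mb, with overlap. In the groups as the headings name them, Cdh11 was 17.1 to 18.7 FPKM in DKO_Ex Fb, below WT Fb, and 12.7 to 25.3 FPKM in DKO_CD Fb, with overlap. Cdh8 was 0.423 to 0.702 FPKM in DKO_Ex Fb, also below WT Fb, and 0.449 to 1.44 FPKM in DKO_CD Fb, with overlap. Cdh6 was 3.62 to 4.34 FPKM in DKO_Ex Fb and 1.72 to 3.43 FPKM in DKO_CD Fb, apart from each other and both overlapping WT Fb. In the Mb all 3 genes of both DKO groups overlapped WT Mb, with Cdh11 at 17.6 to 18.7 FPKM in DKO_Ex and 16.6 to 27.2 FPKM in DKO_CD, Cdh6 at 1.86 to 3.12 and 1.29 to 2.11 FPKM, and Cdh8 at 1.63 to 2.49 and 1.005 to 1.47 FPKM. A deletion inside 1 exon leaves the rest of the transcript to be counted, so these gene-level values check the genotype only weakly. The medians of the 10 genes in TKO against WT, their calls in the Mb and mt-Co2 in the Fb are also given without TKO replicate 3. Other TKO values of the 10 genes, among them the Fb sums, exact tests and counts at an unadjusted p, include it. Lhx2, a transcription factor of the early forebrain and eye field, was 53.2 to 86.3 FPKM in WT Fb, 28.9 to 97.96 FPKM in TKO Fb, 0.155 to 9.05 FPKM in WT Mb and 0.178 to 7.56 FPKM in TKO Mb. En1 and En2, which mark the midbrain and its border with the hindbrain, were under 1 FPKM in every WT and TKO Fb library. WT Mb replicate 5 stood apart, with a sum of 30.4 FPKM over the 8 midbrain markers against 114 to 251 FPKM in the other WT Mb libraries. TKO Fb replicate 4 stood apart as well, with a sum of 131 FPKM over the 8 forebrain markers against 172 to 237 FPKM in WT Fb, and 51.2 FPKM over the midbrain markers against 23.8 to 45.4 FPKM. DKO_CD Fb replicate 2 was similar, with 144.9 and 57.2 FPKM. En1 and En2 were under 1 FPKM in every DKO_CD Fb library as well, so both midbrain sums came almost wholly from other genes of the list. Without TKO Fb replicate 4 the median log2 fold change of the 10 genes in the Fb was 0.33, with 0 of 10 called, and without WT Mb replicate 5 it was 0.38 in the Mb, with 0 of 10 called.

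The level per length differed widely among the 10 genes in WT Mb. mt-Atp8 led with 6418 ± 1228 FPKM (SD, n = 6), followed by mt-Co2 with 4506 ± 318, mt-Co1 with 3978 ± 302, mt-Nd1 with 3694 ± 302, mt-Atp6 with 3396 ± 369, mt-Cytb with 3144 ± 300, mt-Co3 with 2238 ± 129, mt-Nd2 with 1881 ± 222, mt-Nd4 with 1444 ± 167 and mt-Nd5 with 782 ± 93.8 FPKM. Neighbours in this order overlapped in range except at 3 steps, mt-Atp8 over mt-Co2, mt-Cytb over mt-Co3 and mt-Nd4 over mt-Nd5. WT Fb had the same order, and there mt-Atp8 (5626 ± 1515 FPKM) and mt-Co2 (4827 ± 573 FPKM) overlapped. Between WT Mb and WT Fb, the log2 fold changes of the 10 genes ran from -0.09 to 0.22, a description, since the WT Mb libraries were among those that chose the genes. limma's moderated test with Benjamini-Hochberg adjustment over all genes called 0 of 10 where it called 8.26% of all genes tested, and nothing is read from that count.

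TKO Mb had higher values than WT Mb for each of the 10 genes, with no overlap between the 4 TKO and the 6 WT libraries. Of all genes tested, 1.21% were higher without overlap, and of the 216 most abundant genes, those averaging 500 FPKM or more, 9.72% were. Both shares include the 10 genes themselves, mt-Nd4l, mt-Nd6 and the chromosome 1 copies Gm28437, Gm28438, Gm28439, Gm28661, Gm10925 and Gm10222. These make up most of the 21 genes behind the second share. By the adjusted p of limma, 2 of 10 were called, mt-Nd1 and mt-Atp8, which are the genes that the choice started from, against 0.0898% of all genes in either direction. Since the comparison chose the genes, nothing is read from these counts. The median log2 fold change of the 10 was 0.43, and it was 0.42 without TKO replicate 3, where 0 of 10 were called, and 0.22 under quantile normalization. Leaving out WT Mb replicate 3, 4, 5 or 6, or any other TKO Mb library, also left 0 of 10 called, and leaving out WT Mb replicate 1 gave 5.

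Complex I subunits of the membrane arm, which pumps protons, were 32.0% to 46.1% higher in mean FPKM in TKO Mb. mt-Nd1, next to the site where ubiquinone is reduced, was 5252, 5487, 5792 and 5063 FPKM in the TKO Mb libraries, and in WT Mb its lowest, median and highest values were 3317, 3640 and 4111 FPKM. The lowest TKO Mb library for mt-Nd1 was thus above every WT Mb library, and its log2 fold change of 0.55 was 0.28 under quantile normalization. mt-Nd2, a proton-pumping subunit, was 2390, 2544, 2859 and 2774 FPKM against 1584, 1844 and 2236 FPKM. mt-Nd4, also a pumping subunit, was 1853, 2086, 2011 and 2083 FPKM against 1196, 1450 and 1696 FPKM. mt-Nd5, at the far end of the arm, was 928, 1089, 1030 and 1085 FPKM against 626, 804 and 895 FPKM, and its lowest TKO library came closest to the WT range.

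Cytochrome b, the subunit of complex III that binds ubiquinone, followed the same pattern. mt-Cytb was 3785, 4352, 4435 and 4546 FPKM in TKO Mb and 2679, 3130 and 3477 FPKM at the lowest, median and highest in WT Mb, a mean 36.1% higher. All 4 TKO libraries lay above the WT range, and the log2 fold change of 0.45 was 0.17 under quantile normalization.

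The 3 catalytic subunits of complex IV differed less, by 21.1% to 29.3%. mt-Co1, which holds the heme and copper site where oxygen is reduced, was 5038, 4859, 4792 and 5185 FPKM in TKO Mb and 3722, 3840 and 4490 FPKM in WT Mb. mt-Co2, which receives electrons from cytochrome c, was 5476, 6073, 5991 and 5763 FPKM against 4267, 4403 and 5131 FPKM. mt-Co3 was 2467, 2901, 2605 and 2869 FPKM against 2076, 2260 and 2373 FPKM. Of the 10 genes, mt-Co3 had the smallest difference, and its lowest TKO library was just above the highest WT library. Under quantile normalization the log2 fold change was 0.012 for mt-Co1, 0.14 for mt-Co2 and 0.042 for mt-Co3, against 0.32, 0.37 and 0.27 on the FPKM as deposited, so the size of these differences depends on the scaling.

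The membrane subunits of complex V differed by unequal amounts. mt-Atp8 was 12116, 11630, 11210 and 13347 FPKM in TKO Mb and 5208, 6111 and 8152 FPKM in WT Mb, a mean 88.1% higher and the largest difference of the 10. mt-Atp6, which forms the proton path with the c-ring, was 4054, 4586, 4441 and 4689 FPKM against 3024, 3342 and 3925 FPKM, a mean 30.8% higher. The ratio of mt-Atp8 to mt-Atp6 within a library was 2.99, 2.54, 2.52 and 2.85 in TKO Mb against 1.71 to 2.20 in WT Mb, so the gap between these overlapping genes also differed between the groups. Quantile normalization widened that gap, with log2 fold changes of 1.46 for mt-Atp8 and 0.081 for mt-Atp6, against 0.93 and 0.39 on the FPKM as deposited. mt-Atp8 is shorter than the distance between mates that was set for alignment, and its FPKM depends more than that of longer genes on the fragment lengths in a library, whose part in this difference was not tested.

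**Figure D1:**
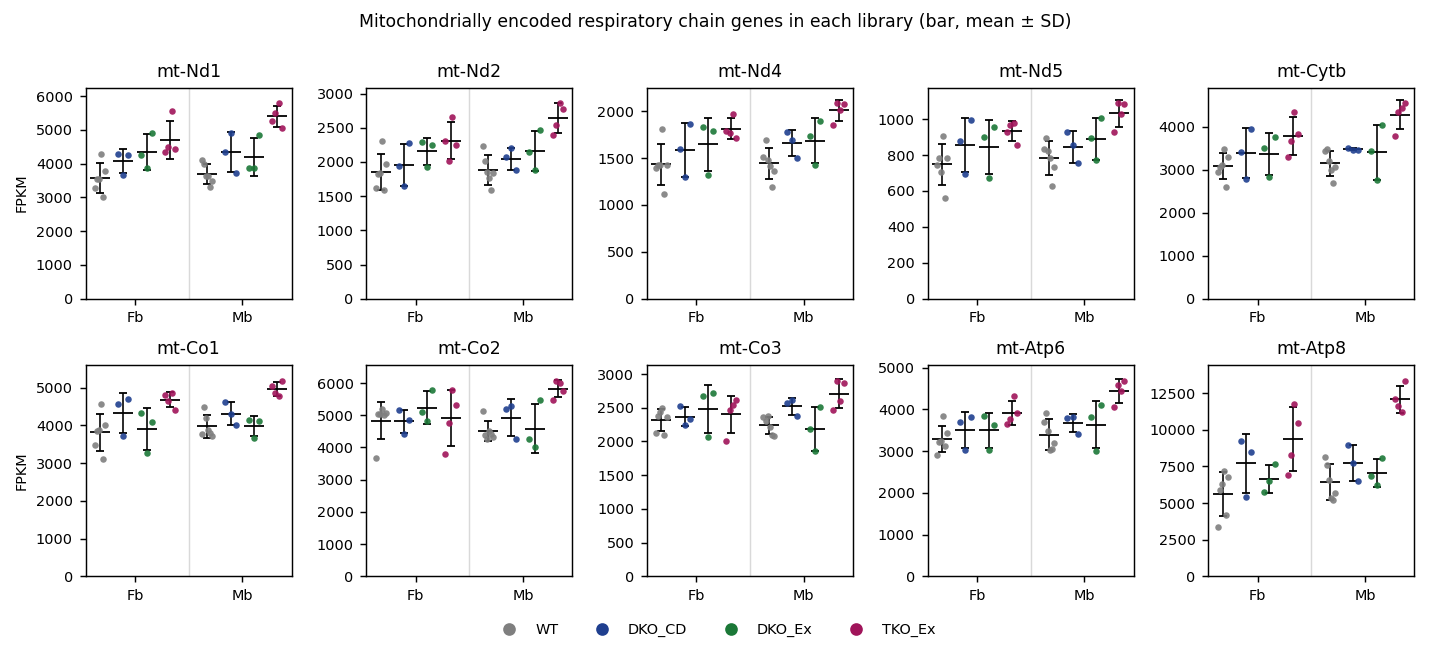
FPKM of each of the 10 genes in every library, by group and region, 1 point per library. In the Mb the 4 TKO points lie above all 6 WT points for each gene, and in the Fb this holds for mt-Nd1 alone.

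The Fb libraries were not used to choose the genes, so the same question can be tested there. Whether they come from the same embryos as the Mb libraries is not given in the labels, and same-numbered Fb and Mb libraries of a group deviated from their group means with correlations of 0.008 to 0.14. If embryos were shared, the Fb tests would not be independent of the comparison that chose the genes. In the Fb, TKO was higher in the fit for each of the 10 genes, mt-Co2 turning below 0 under median-of-ratios scaling. The log2 fold changes on the log2(FPKM + 1) scale ran from 0.02 to 0.75 with a median of 0.31, where the median of all genes was 0.02, and the median of the 10 was 0.27 without TKO replicate 3. None of the 10 passed limma's test after adjustment over all 13261 genes (adjusted p = 0.293 to 0.980), against 0.0603% of all genes called. At an unadjusted p under 0.05, 8 of the 10 were higher, where 5.07% of all genes were. The fold change was above 0 for 10 of 10 against 54.2% of all genes, a count that DKO_Ex Fb, DKO_CD Fb and DKO_CD Mb shared. These 10 values do not count as 10 separate observations, since the genes rise and fall together from library to library and some share bases.

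Among the complex I genes, mt-Nd1 was 4345, 4504, 5547 and 4440 FPKM in TKO Fb, and 3004, 3557 and 4296 FPKM at the lowest, median and highest in WT Fb. It was the only gene of the 10 without overlap in the Fb, where 1.42% of all genes and 2.34% of the genes at 500 FPKM or more were higher without overlap. Both shares include mt-Nd1 and Gm29216, the chromosome 1 copy of mt-Co1. The log2 fold change of mt-Nd1 was 0.40 ± 0.11 (SE; limma adjusted p = 0.293). In a 2-sided exact permutation test its p was 0.00952, the smallest that 4 against 6 libraries allows, unadjusted and 1 of 30 such tests over genes and mutant groups. mt-Nd2 was 2305, 2012, 2663 and 2249 FPKM against 1586, 1830 and 2305 FPKM, with 1 of 4 TKO libraries above WT (log2 fold change 0.32). mt-Nd4 was 1793, 1766, 1975 and 1717 FPKM against 1113, 1430 and 1807 FPKM (0.35). mt-Nd5 was 930, 966, 980 and 855 FPKM against 564, 764 and 908 FPKM (0.33), with 3 of 4 TKO libraries above WT.

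mt-Cytb was 3297, 3667, 4345 and 3824 FPKM in TKO Fb and 2601, 3075 and 3486 FPKM in WT Fb, with a log2 fold change of 0.30 and 3 of 4 TKO libraries above the WT range. Its unadjusted exact permutation p was 0.0190, as were those of mt-Nd5, mt-Co1 and mt-Atp8.

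The complex IV genes had unequal fold changes in the Fb, and the differences between them were not tested. mt-Co1 was 4799, 4645, 4870 and 4410 FPKM against 3104, 3866 and 4568 FPKM in WT (log2 fold change 0.30 ± 0.10, limma adjusted p = 0.397). mt-Co2 was 3793, 4771, 5793 and 5329 FPKM against 3664, 5033 and 5182 FPKM (log2 fold change 0.02 ± 0.13, limma adjusted p = 0.980), and the fold change turned to -0.06 without TKO replicate 3 and to -0.003 with median-of-ratios scaling. mt-Co3 was 2003, 2461, 2542 and 2612 FPKM against 2100, 2368 and 2493 FPKM (log2 fold change 0.05 ± 0.09, limma adjusted p = 0.906), and over the settings run its fold change was 0.02 to 0.16. The lowest library for both mt-Co2 and mt-Co3 among TKO Fb was replicate 1, at the foot of or below the WT range. The exact permutation p was 0.819 for mt-Co2 and 0.543 for mt-Co3, which does not show that these genes were level between the groups.

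In complex V, mt-Atp8 again had the largest difference of the 10, with 6880, 8308, 11767 and 10444 FPKM in TKO Fb against 3364, 6096 and 7197 FPKM in WT Fb. Its log2 fold change was 0.75 ± 0.23 (SE; limma adjusted p = 0.370), and 3 of 4 TKO libraries lay above every WT library. mt-Atp6 was 3657, 3770, 4332 and 3910 FPKM against 2915, 3228 and 3831 FPKM (log2 fold change 0.25 ± 0.08, limma adjusted p = 0.422). The ratio of mt-Atp8 to mt-Atp6 was 1.88, 2.20, 2.72 and 2.67 in TKO Fb and 1.15 to 1.98 in WT Fb.

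The TKO effects in the regions were set against each other with an interaction term, the Mb effect minus the Fb effect, which includes the Mb libraries that chose the genes. The 10 differences of log2 fold change ran from 0.02 for mt-Co1 to 0.35 for mt-Co2 with a median of 0.15 that turned to -0.15 under quantile normalization, and limma called 0 of 10 against 0.0149% of all genes, with 1 of 10 at an unadjusted p under 0.05 where 3.16% of all genes had a larger Mb effect. Since the choice of genes bears on these differences, they are a description and nothing is read from the counts.

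**Figure D2:**
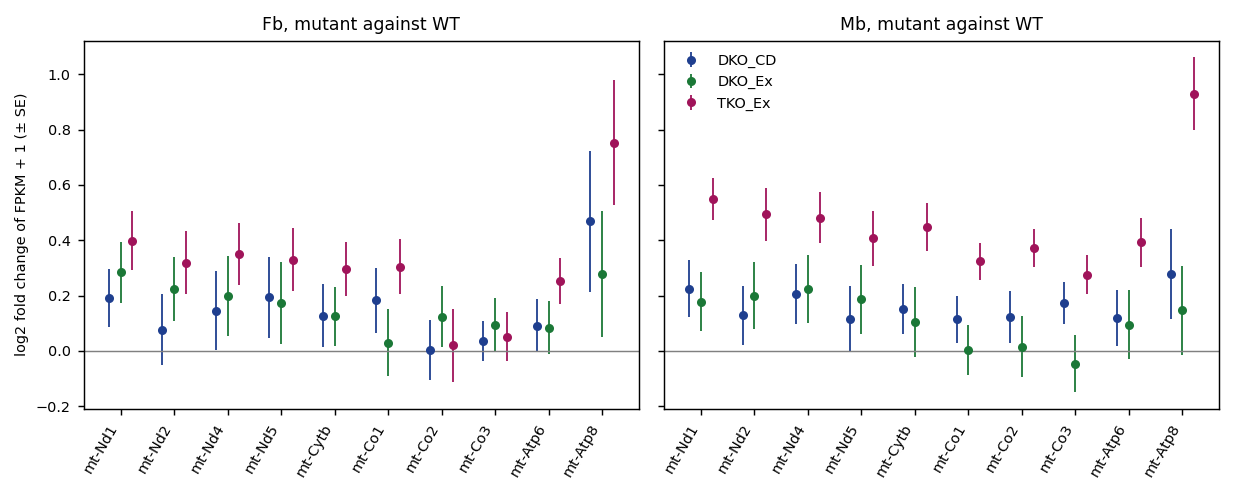
Log2 fold change over WT on the log2(FPKM + 1) scale for each of the 10 genes, by mutant group and region, with bars of 1 standard error from limma. In TKO the largest value is that of mt-Atp8, 0.93 in the Mb and 0.75 in the Fb, and in the Fb mt-Co2 and mt-Co3 are nearer to 0 in TKO (0.02 and 0.05) than in DKO_Ex (0.12 and 0.09).

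The DKO groups had smaller median fold changes than TKO in both regions, a difference that was not tested. The medians moved with the settings. That of DKO_Ex Mb reached 0.25 when scaled to the total outside the mitochondrial genome. That of TKO Mb went down to 0.22 under a different setting, quantile normalization. Single libraries moved the DKO medians in the Fb, to 0.27 without DKO_Ex Fb replicate 2 and 0.064 without DKO_Ex Fb replicate 3, and to 0.26 without DKO_CD Fb replicate 2, 0.078 without WT Fb replicate 5 and 0.034 without DKO_CD Fb replicate 3, against 0.25 to 0.37 for TKO Fb with 1 library left out. In the Fb mt-Co2 and mt-Co3 had larger ones in DKO_Ex (0.12 and 0.09) than in TKO (0.02 and 0.05). In DKO_Ex Fb the log2 fold changes ran from 0.03 for mt-Co1 to 0.28 for mt-Nd1, with a median of 0.15 and 10 of 10 above 0 where 47.0% of all genes were, and 0 of 10 were called (lowest limma adjusted p = 0.625) against 0.0759% of all genes. mt-Nd1 was 4271, 3858 and 4921 FPKM there and was the 1 gene with an unadjusted p under 0.05, where 2.79% of all genes were higher at that level. In DKO_CD Fb the median was 0.14 and 10 of 10 were above 0, as were 58.1% of all genes. There 0 of 10 were called (lowest adjusted p = 0.660 by limma) against 0.0378% of all genes, and 0 had an unadjusted p under 0.05 where 5.31% of all genes were higher at that level. mt-Atp8 in DKO_CD Fb was 9243, 5422 and 8479 FPKM, with 1 library inside and 2 above the WT range. Since 3 against 6 libraries cannot give an exact p below 0.0238, single genes of the DKO groups were read from the limma fit.

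DKO_Ex Mb and DKO_CD Mb were set against the same WT Mb libraries as TKO Mb, so their values are not independent of the comparison that chose the genes. In DKO_Ex Mb, mt-Nd1 was 3874, 3859 and 4849 FPKM and mt-Atp8 was 6842, 6226 and 8066 FPKM, both overlapping WT. The median log2 fold change of the 10 was 0.13 and 9 of 10 were above 0, as were 55.7% of all genes. That median was 0.25 when scaled to the total outside the mitochondrial genome, -0.00692 with a replicate block, 0.077 without WT Mb replicate 5, 0.23 without DKO_Ex Mb replicate 2 and 0.024 without DKO_Ex Mb replicate 3. By limma 0 were called (lowest adjusted p = 0.904) against 0.0903% of all genes, and 0 had an unadjusted p under 0.05 against 3.53% of all genes higher. In DKO_CD Mb, mt-Nd1 was 4349, 4920 and 3735 FPKM and mt-Atp8 was 8958, 7717 and 6515 FPKM, the median was 0.14 with 10 of 10 above 0 where 53.4% of all genes were, and 0 of 10 were called (lowest adjusted p = 0.727 by limma) against 0.0375% of all genes, with 1 of 10 higher at an unadjusted p under 0.05 against 4.32%. The DKO_CD Mb median was 0.065 under quantile normalization and 0.051 with a replicate block. There mt-Co3, at 2575, 2608 and 2382 FPKM, was the 1 gene of the 10 without overlap with WT Mb, where 2.24% of all genes were higher without overlap. Set directly against each other in the Mb, with no WT or TKO library, DKO_Ex and DKO_CD differed by -0.22 to 0.07 on the log2 scale over the 10 genes, and 0 of 10 were called (lowest limma adjusted p = 0.811) against 0.045% of all genes, with 0 at an unadjusted p under 0.05 against 3.05% higher. The median difference of -0.046 turned to 0.144 under quantile normalization. The interaction of each DKO group with region, which includes the WT Mb libraries, called 0 of 10 as well, against 0.0% of all genes for DKO_Ex and 0.00746% for DKO_CD, and 0 of 10 had an unadjusted p under 0.05, against 2.68% and 2.25% of all genes with a larger Mb effect.

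The other genes of the mitochondrial genome described here are 3 protein genes and 2 ribosomal RNA genes, and its transfer RNA genes are left out. In TKO Mb, mt-Nd4l, a small complex I subunit whose gene overlaps mt-Nd4, was 1893, 2214, 2165 and 2165 FPKM against 1086, 1447 and 1553 FPKM in WT, 49.6% higher in mean. mt-Nd6, the only protein gene on the opposite strand (chrM:13552-14070), was 980, 1180, 1004 and 1292 FPKM against 592, 812 and 928 FPKM, 39.6% higher. mt-Nd3 was 4683, 4551, 5556 and 4071 FPKM against 2293, 3198 and 4236 FPKM, 47.5% higher with 1 TKO library inside the WT range. All 3 missed the adjusted threshold. The ribosomal RNAs overlapped WT, with mt-Rnr1 at 1696, 1305, 909 and 1404 FPKM against 978, 1235 and 2392 FPKM in WT Mb and mt-Rnr2 at 1610, 1183, 911 and 1233 FPKM against 1015, 1173 and 2102 FPKM. Their means differed by -4.07% and -5.06%.

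In TKO Fb, mt-Nd4l had a log2 fold change of 0.36 ± 0.14 (SE; limma adjusted p = 0.502) and mt-Nd6 one of 0.30 ± 0.14 (adjusted p = 0.598 by limma). mt-Nd3 was 1611, 3358, 4937 and 4655 FPKM, spanning from below to above the WT Fb range of 2285 to 4139 FPKM. mt-Rnr1 was 829.2 and 887 FPKM in TKO replicates 1 and 2 and 1746 and 1861 FPKM in replicates 3 and 4, where WT Fb reached from 906 to 1516 FPKM, so the TKO libraries fell on both sides of WT.

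Summed over the 10 genes, TKO Mb had 43357, 45607, 45165 and 47404 FPKM and WT Mb 27970 to 35267 FPKM, 1.44 times the WT mean. In the Fb the TKO sums were 33802, 36869, 44815 and 39790 FPKM against 25499 to 36074 FPKM, 1.27 times the WT mean, with 3 of 4 above every WT library. Over the alternative settings run for these sums, TKO was 1.18 to 1.25 times the WT mean in the Fb and 1.33 to 1.45 times in the Mb. As a share of all FPKM in a library, the 10 genes made up 5.49%, 5.32%, 5.95% and 5.19% in TKO Fb and 3.42% to 4.99% in WT Fb, and 6.02% to 6.65% in TKO Mb against 3.995% to 4.64% in WT Mb, without overlap in either region. In the Fb this separation rests in part on TKO replicate 1, whose summed FPKM lay inside the WT range. Its total of all FPKM, 615608, was below that of every WT Fb library, 684378 to 771930. The DKO sums were 1.07 to 1.13 times the WT mean, and each DKO group overlapped WT.

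Sequencing depth and the markers of some cell types also differed between groups, and not always in step with these values. Depth, estimated from the steps between low FPKM values of long genes, was 1.97 to 3.26 M (mega) fragments per library. Taken at full gene length, this would put roughly 1870 to 23729 fragments behind a single value of the 10 genes. These are estimates, least sure for mt-Atp8, the shortest gene, which gave the lowest. TKO Mb was shallower, 1.97 to 2.35 M, than WT Mb, 2.37 to 2.91 M, without overlap, and DKO_Ex Mb was deeper, 3.07 to 3.26 M, also without overlap, with a mitochondrial sum 1.07 times the WT mean. In TKO Fb replicates 3 and 4, with 2.03 and 2.09 M fragments, had the highest sums over the 10 genes, and replicate 1, with 3.20 M, had the lowest. Among WT Fb, replicate 5, with 2.18 M, had a low sum of 26406 FPKM, and replicate 1, with 3.04 M, had the lowest, 25499 FPKM. The part of depth in the result was not tested. In bulk tissue, fewer cells of a type and less RNA per cell cannot be told apart.

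Primitive red cells were present in all libraries, and the sum over their 8 markers in TKO Mb, 13825 to 21655 FPKM, lay inside the WT Mb range of 5502 to 23843 FPKM, with Hbb-y, an embryonic globin, the most abundant. Surface ectoderm markers had their highest Fb sum in TKO replicate 4. The 8 genes summed to 95.9, 94.6, 180 and 239 FPKM in TKO Fb against 63.2 to 106 FPKM in WT Fb, so TKO replicates 3 and 4, which also led in the mitochondrial sum among TKO Fb, were above WT. In each DKO group of the Fb it was the other way round: the library with the highest ectoderm sum had the lowest sum over the 10 genes. DKO_CD Fb replicate 2 had 222 FPKM of ectoderm markers and 28906 FPKM over the 10 genes, and DKO_Ex Fb replicate 2 had 172 and 30267 FPKM. In the Mb, DKO_CD replicate 2 had 86.6 and 36876 FPKM, and DKO_CD replicate 3 had 67.7 and 31916 FPKM. The most abundant ectoderm marker, Krt18, an epithelial keratin, was 58.5 ± 28.8 FPKM in TKO Fb against 25.4 ± 4.45 FPKM in WT Fb. In that comparison 0 of 8 passed the adjusted threshold where 0.0603% of all genes did, and 4 of 8 were higher at an unadjusted p under 0.05 where 5.07% of all genes were. None of the 8 was under 1 FPKM throughout WT or TKO Fb. In TKO Mb the ectoderm sums, 27.9 to 45.1 FPKM, lay close to those of WT Mb, 28.3 to 43.9 FPKM, and Grhl3 was under 1 FPKM in every library of both groups. Mesenchyme and neural crest markers summed to 156, 155, 154 and 116 FPKM in TKO Fb and 158 to 199 FPKM in WT Fb, with 0 of 9 tested called and 3 lower at an unadjusted p under 0.05 where 3.59% of all genes were. Neuroepithelium markers, 6 genes led by Sox2, summed to 357, 368, 360 and 380 FPKM in TKO Fb and 271 to 339 FPKM in WT Fb, without overlap, with 0 of 6 called where 0.0603% of all genes were, and 2 higher at an unadjusted p under 0.05 where 5.07% of all genes were. In the DKO Fb libraries their sums were 330 to 378 FPKM. The part of these cell types in the Fb result was not tested.

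The nuclear-encoded partners had medians nearer to 0. Of 83 listed nuclear subunits of complexes I to V, 80 were tested in each of these comparisons and 0 were called in TKO Fb or TKO Mb, where 0.0603% and 0.0898% of all genes were, so that a count of 0 is near that share. In TKO Fb their median log2 fold change was -0.07, with 19 of 80 above 0 where 54.2% of all genes were, and 8 lower at an unadjusted p under 0.05 where 3.59% of all genes were. In TKO Mb the median was 0.08, with 52 of 80 above 0 where 53.4% of all genes were. At an unadjusted p under 0.05, 12 of the 80 were higher where 5.18% of all genes were, and 1 was lower where 3.2% were. The most abundant subunit, Atp5b, the catalytic beta subunit of ATP synthase, was 1408 ± 200 FPKM in TKO Fb and 1404 ± 94.4 FPKM in WT Fb, and 1454 ± 64.9 FPKM in TKO Mb against 1219.5 ± 174 FPKM in WT Mb. Usmg5, a small subunit of the same complex, was 735 ± 234 FPKM against 693 ± 130 FPKM in the Fb.

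By complex, the median in TKO Fb was -0.10 for 36 nuclear genes of complex I, 0.05 for 4 of complex II, -0.20 for 9 of complex III, -0.05 for 14 of complex IV and -0.09 for 17 of complex V. Cox7c, a small subunit of complex IV, was 563 ± 176 FPKM in TKO Fb and 783 ± 111 FPKM in WT Fb (log2 fold change -0.53 ± 0.22, limma adjusted p = 0.511). Cox8a, of the same complex, was 610 ± 53.6 FPKM in TKO Mb and 476 ± 57.6 FPKM in WT Mb (0.36 ± 0.10, limma adjusted p = 0.316). Ndufa7 and Ndufa3 of complex I had log2 fold changes of -0.10 and -0.46 in TKO Fb, Uqcrq and Uqcr10 of complex III -0.30 and -0.26, and Sdhd and Sdhc of complex II -0.19 and 0.14. In TKO Mb these were -0.03 and 0.34 for complex I, 0.29 and 0.41 for complex III, and -0.07 and -0.12 for complex II. Cox7c had 0.17 in TKO Mb. None passed the adjusted threshold.

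Genes that serve the mitochondrial genome in transcription, replication and RNA processing had list medians of 0.01 to 0.13 in TKO Fb and TKO Mb. For 16 genes of mitochondrial transcription and replication the median was 0.10 in TKO Fb and 0.07 in TKO Mb, with 0 called. For this and the next lists, 0.0603% of all genes were called in TKO Fb and 0.0898% in TKO Mb, so a count of 0 is near the share over all genes. Tfam, which packages mitochondrial DNA and starts its transcription, was 51.2 ± 20.1 FPKM in TKO Fb and 56.7 ± 7.35 FPKM in WT Fb, and 52.6 ± 21.4 FPKM in TKO Mb against 52.1 ± 10.2 FPKM. Ssbp1, the single-strand binding protein of its replication, was 94.4 ± 10.04 FPKM in TKO Mb and 86.9 ± 5.28 FPKM in WT Mb. For 18 tested genes of RNA processing and stability the medians were 0.01 and 0.13, with 0 called. Slirp, which binds and stabilises mitochondrial messenger RNAs, was 193 ± 67.0 FPKM in TKO Fb and 309 ± 86.7 FPKM in WT Fb (log2 fold change -0.71 ± 0.25, limma adjusted p = 0.460), and 256 ± 30.0 FPKM in TKO Mb against 227 ± 75.7 FPKM in WT Mb. Hsd17b10, a part of the enzyme that cuts transfer RNAs out of the precursor, had log2 fold changes of -0.12 in TKO Fb and -0.08 in TKO Mb.

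The 48 measured proteins of the large mitochondrial ribosomal subunit had a median of -0.11 in TKO Fb and 0.06 in TKO Mb, and the 28 of the small subunit -0.09 and 0.02, with 0 called. Mrpl52, Mrpl33, Mrps21 and Mrps18c, the most abundant of each subunit by mean FPKM over the 32 libraries, had log2 fold changes of -0.10, -0.58, -0.28 and -0.13 in TKO Fb. In TKO Mb they had 0.37, 0.26, 0.18 and 0.09, and all were short of the adjusted threshold in both regions. Regulators of mitochondrial biogenesis, with Yy1 and Pprc1 the most abundant, had medians of 0.02 and 0.09 over 7 tested genes, and genes of the mitochondrial stress response, led by the chaperonins Hspe1 and Hspd1, had -0.05 and 0.11 over 15. Hspe1 was 796 ± 178 FPKM in TKO Fb and 959 ± 111 FPKM in WT Fb. All of these lists were described by counts and medians, and none was tested as a list.

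**Figure D3:**
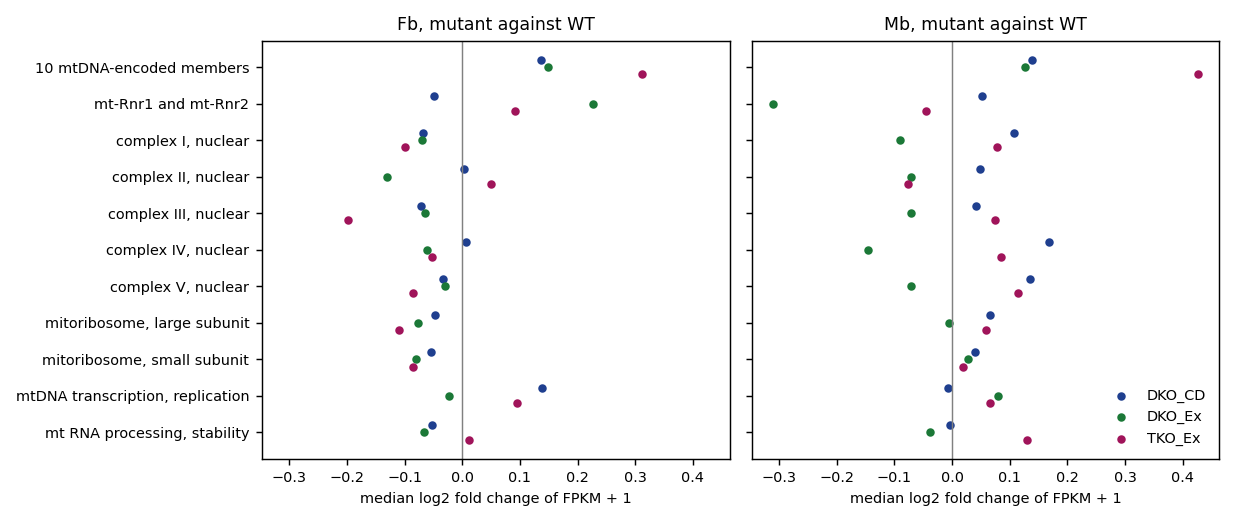
Median log2 fold change over WT of each gene list, by mutant group and region. The 10 mitochondrial genes are highest in TKO Mb (0.43) and TKO Fb (0.31), and the nuclear subunits of complexes I to V are at 0.08 and -0.07.

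Across the 32 libraries the 10 genes varied together. The 45 pairs had Pearson correlations of log2(FPKM + 1) from 0.44 to 0.97 with a median of 0.83, over libraries that share groups and depth, and the figures are a description. The closest pair was mt-Nd4 with mt-Nd5 and the most distant mt-Co1 with mt-Co2. mt-Co2 and mt-Co3 followed the others least, with median correlations of 0.68 and 0.70 to the other 9 genes. Outside the mitochondrial genome and its chromosome 1 copies, the genes whose level was most like the summed level, among 6731 genes averaging 10 FPKM or more, were Gm13341 (0.71), Krtcap2 (0.70), Gm3617 (0.70), Ik (0.69) and Gm37065 (0.67). Gm13341 and Gm3617 are annotated as pseudogenes and Gm37065 as an antisense transcript, and all these values are descriptions over the same libraries. Less similar nuclear matches of mitochondrial genes, such as that of mt-Nd2, were not removed from this ranking. Whether Gm13341 is such a match is not given here.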

How the data were processed

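The authors aligned directional paired-end reads to GRCm38 with TopHat2 and made the deposited FPKM values with Cufflinks. HTSeq and DESeq2 are also named in the submitters' processing notes, and their counts were not used here. Versions and any removal of ribosomal RNA are not given in the sources used here. Each of the 32 tables holds 1 library, and 65 repeated identifier rows were summed. Genes averaging 1 FPKM or more across a fit's libraries were tested with limma 3.58.1 (R 4.3.3; lmFit, eBayes with trend) on log2(FPKM + 1), each mutant group against WT of its region, with Benjamini-Hochberg adjustment over all genes and a threshold of 0.05. Fold changes on this scale are slightly shrunken for low genes. The fit was tested on simulated data.

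Exact permutation tests (SciPy 1.17.1) were 2-sided and their p-values are unadjusted. Depth was estimated from FPKM steps of 771 genes of at least 4000 bases. FPKM carries no count, so no interval was given per value, and PCR duplicates are not known. Gene positions and sequences come from GENCODE M21 (48218 of 48576 identifiers matched), and copies were found with BLASTN 2.17.0. The text names the 10 genes, the other mitochondrial protein and ribosomal RNA genes, the cadherins, the 2 most abundant genes of each mitochondrial list by mean FPKM over all libraries, leading markers of the tissue lists, chosen after their values were seen, and the 5 genes most correlated with the summed level. The genes and lists were chosen with earlier results of these data known. Libraries with the same number in WT and mutants are different embryos, and the labels do not say whether Fb and Mb of 1 number share an embryo. Libraries count as replicates by their labels, and p-values measure the spread between them. Alternatives varied the pseudocount (0.1 and 5), the filter, the scaling, the fit, the DKO grouping and the libraries left out.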

Additional observations from a re-analysis of the deposited data

Results flagged for a closer look

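A Dixon test for a single library apart from its group was run over 64 groups of 4 or 6 libraries, WT and TKO, and marked 7 of them, where chance marks about 1 in 20. TKO Fb replicate 3 had 5547 FPKM of mt-Nd1 with the next library at 4504 FPKM. WT Fb replicate 1 had 3664 FPKM of mt-Co2 with the next at 4996 FPKM, and WT Mb replicate 1 had 5131 FPKM of the same gene with the next at 4517 FPKM. For mt-Nd4l, WT Mb replicate 5 was low at 1086 FPKM, below 1425 FPKM, and TKO Mb replicate 1 was low at 1893 FPKM, below 2165 FPKM. WT Mb replicate 6 was high in both ribosomal RNAs, with 2392 FPKM of mt-Rnr1 over the next at 1310 FPKM and 2102 FPKM of mt-Rnr2 over 1204 FPKM.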

How the results depend on the processing

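The median log2 fold change of the 10 genes stayed above 0 under every setting run for TKO Fb (0.26 to 0.38; 0.25 to 0.37 with 1 library left out) and TKO Mb (0.22 to 0.44; 0.38 to 0.48 with 1 library left out), the lowest in TKO Mb, 0.225, under quantile normalization. That setting also gave medians of 0.144 for DKO_Ex against DKO_CD Mb and -0.152 for the TKO interaction, against -0.046 and 0.15. The cause was not tested. The calls in TKO Mb were less firm. Of the 10 genes, 2 were called, but 0 with no filter on low values, 0 without a mean-variance trend, 0 without TKO replicate 3 in both regions, 1 under quantile normalization, 3 with all groups in 1 fit and 4 when scaled to the total outside the mitochondrial genome. Leaving out 1 library gave 0 (without WT Mb replicate 3, 4, 5 or 6 or any TKO Mb library) to 5 (without WT Mb replicate 1). In the other comparisons with WT none of the 10 was called under any setting. The log2 fold change of mt-Co2 in TKO Fb, 0.02, was -0.00318 with median-of-ratios scaling and -0.0643 without TKO replicate 3, and -0.0643 to 0.139 with 1 library left out, below 0 without WT Fb replicate 1, TKO Fb replicate 3 or TKO Fb replicate 4.

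Counts of all genes called were small and moved with the settings. With no filter on low values they were 5 for TKO Fb (8 in the fit reported), 6 for TKO Mb (12), 15 for DKO_CD Fb (5) and 5 for the DKO_CD interaction (1). With at least 1 FPKM in every library they were 2 for DKO_CD Mb (5), 0 for DKO_Ex against DKO_CD Mb (6), 1 for the TKO interaction (2) and 0 for the DKO_CD interaction. With all groups in 1 fit they were 32 for TKO Fb, 12 for DKO_CD Fb, 38 for TKO Mb, 10 for DKO_CD Mb, and 0 for DKO_Ex against DKO_CD Mb and for the TKO and DKO_CD interactions. Scaling outside the mitochondrial genome gave 5 for TKO Fb, quantile normalization 8 for DKO_CD Fb and 2 for the DKO_CD interaction, and median-of-ratios 8 for DKO_CD Fb. A pseudocount of 5 gave 9 for DKO_CD Fb and 3 for DKO_Ex against DKO_CD Mb, and one of 0.1 gave 1 for the TKO interaction. Without the trend, TKO Mb had 3 and the TKO interaction 4. Without TKO replicate 3 the interaction had 0. Grouped by record, DKO_Ex Fb had 5 (10), DKO_CD Fb 10, DKO_Ex Mb 5 (12), DKO_CD Mb 12, and the interactions 1 for DKO_Ex (0) and 0 for DKO_CD.

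Leaving out 1 library gave 0 to 8 for TKO Fb (0 without TKO Fb replicate 2), 6 to 14 for DKO_Ex Fb, 2 to 10 for DKO_CD Fb, 4 (without TKO Mb replicate 1) to 52 (without WT Mb replicate 1) for TKO Mb, 3 to 14 for DKO_Ex Mb, 3 to 10 for DKO_CD Mb, 1 to 10 for DKO_Ex against DKO_CD Mb, 1 to 5 for the TKO interaction and 0 to 1 for that of DKO_Ex.

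A replicate block on the library number was also fitted. Same-numbered WT and mutant libraries deviated from their group means with correlations of -0.09 to 0.05, so they share only a number. With this replicate block the calls were 0 for TKO Fb, 2 for DKO_Ex Fb, 0 for TKO Mb (0 of the 10 genes), 1 for DKO_Ex Mb, 1 for DKO_CD Mb, 1 for DKO_Ex against DKO_CD Mb, 0 for the TKO interaction and 1 for that of DKO_Ex, and in DKO_Ex Mb mt-Atp8 had a log2 fold change of -0.0798 and the 10 genes a median of -0.00692.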
